A study of Danio rerio with 7 samples.

Results

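Windows of 100 kb that held many Sall4 peaks and almost no Cdx4 peak were examined in ChIP-seq data from whole zebrafish embryos at the bud stage. Every sequence was divided into windows from position 1, and a window was kept when it held the centres of 5 or more Sall4 peaks and of at most 1 Cdx4 peak. The windows were thus selected on the peak positions of both factors, so their counts of Sall4 and Cdx4 peaks are a description and not a result. The rule kept 140 windows, called Cdx4-poor windows here, of 491 windows that were dense in Sall4. Together they held 834 of the 9747 Sall4 peaks, and all 834 are described. The other 351 dense windows, with 2 or more Cdx4 peaks each, held 2879 Sall4 peaks, and 3663 sparse windows with 1 to 4 Sall4 peaks held the remaining 6034. The name Cdx4-poor is relative to the other dense windows, which held a mean of 4.60 Cdx4 peaks, against 0.514 in Cdx4-poor windows. Sparse windows held a mean of 0.635.

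The embryos were wild-type fish of the Tu strain, and 500 embryos were collected for each precipitation after about 2000 had been staged. A Myc tag was present on Cdx4 and on Sall4, and the same anti-Myc antibody served for both, while H3K27ac and H3K4me3 were precipitated with antibodies against the modified histones. Embryos were left uninjected or received mRNA when they were at the 1-cell stage, and the labels do not say which applied to each library. The peaks are therefore sites of tagged proteins, which are not the native Cdx4 and Sall4 of wild-type fish. An anti-Myc control in embryos without the tag was not analysed here. Each of the 4 targets was represented by 1 library and 1 interval list, which had 9747 entries for Sall4, 5166 for Cdx4, 4599 for H3K27ac and 19401 for H3K4me3. Sequencing depth and peak thresholds are unknown here, so an interval that was not called is not a mark or a factor shown to be absent. With 1 library per target no spread between libraries exists and no test was made. Intervals in brackets after a percentage are exact binomial 95% intervals that cover counting error only, and peaks of 1 window share their surroundings, so these intervals are narrower than the true uncertainty.

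Sall4, a spalt-family protein with zinc fingers, binds DNA and is known for its part in keeping embryonic cells undifferentiated and can act with repressor complexes in mouse cells. Cdx4 is a homeodomain factor of the caudal family that patterns the posterior body and is needed for blood formation in zebrafish embryos. H3K27ac marks active enhancers and promoters, and H3K4me3 marks promoters, so the domains show where elements with these marks were called near the Sall4 peaks. Many binding sites of 1 factor in a short stretch of genome are common near developmental genes. No gene and no base sequence is given for any position, because no genome or annotation of the assembly of the files, Zv8, was used here.

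Most Cdx4-poor windows were only just dense. Of the 140 windows, 67 held 5 Sall4 peaks, 43 held 6, 12 held 7, 11 held 8, 3 held 9, 3 held 10 and 1 held 12. The number of Cdx4 peaks was 0 in 68 windows and 1 in 72. Windows at the limits of the rule were common on both sides. Just outside, 136 windows held 4 Sall4 peaks and at most 1 Cdx4 peak, and 92 dense windows held exactly 2 Cdx4 peaks. Cdx4-poor windows made up 47.5% (39.1 to 56.1%) of dense windows with 5 Sall4 peaks, 41.3% (31.8 to 51.4%) of those with 6 and 4.00% (1.10 to 9.93%) of the 100 windows with 10 or more. The mean number of Cdx4 peaks was 1.86 in dense windows with 5 Sall4 peaks and 6.23 in those with 10 or more.

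**Figure D1:**
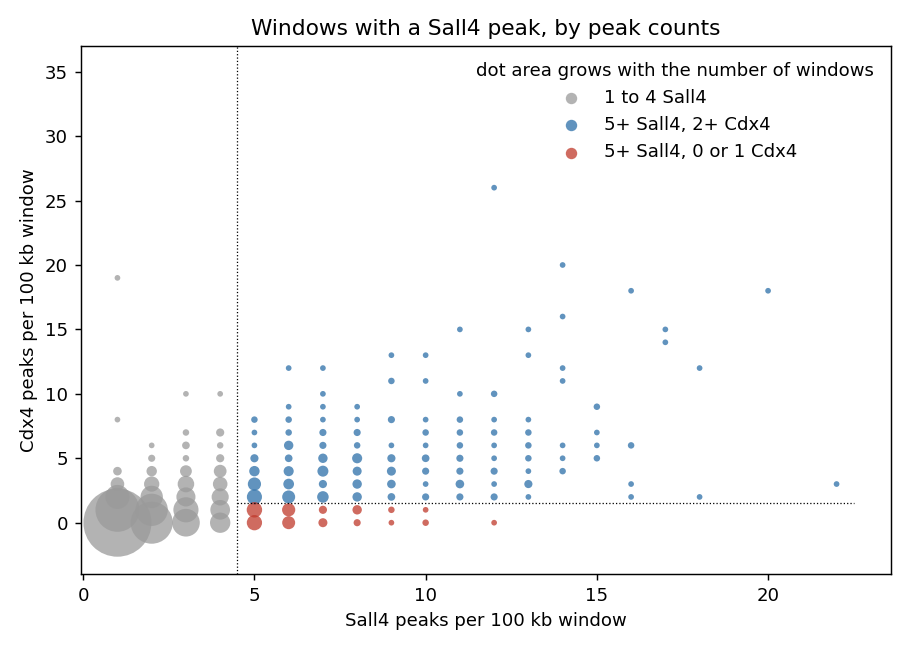
Each dot is a pair of counts, Sall4 peaks per 100 kb window on the x axis and Cdx4 peaks on the y axis, and its area grows with the number of windows. The 140 Cdx4-poor windows (red) lie at the lower edge and reach 12 Sall4 peaks, while the other dense windows (blue) reach 22 Sall4 and 26 Cdx4 peaks.

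Few Cdx4 peaks were typical of the windows beside Cdx4-poor windows and of those beside the other dense windows alike. Only the central window was chosen for few Cdx4 peaks, so its flanks were not held to that limit. Of the 140 windows, 50 (35.7%, 27.8 to 44.3%) had 0 Cdx4 peaks in the 2 windows beside them, and 24 had 0 Cdx4 peaks across all 3 windows. The 2 flanking windows held a median of 1 Cdx4 peak and at most 17. The other dense windows also had a median of 1 in their flanks, with a mean of 2.81 against 1.71. The lower quartile was 0 in both classes, and the other dense windows reached 33. Of the Cdx4-poor windows, 27 lay next to a dense window with 2 or more Cdx4 peaks. The nearest Cdx4 peak was a median of 36644 bp from a Sall4 peak of a Cdx4-poor window (quartiles 11486 and 96960 bp), against 662 bp in the other dense windows, a distance that the rule itself sets in part. The window with 8 Sall4 peaks on chromosome 13 at 5700001 to 5800000 was the extreme case. It had 0 Cdx4 peaks inside, 17 in its flanking windows and the nearest at 10271 bp. The Sall4 peak farthest from Cdx4, on chromosome 1 at 12371742 to 12371841 with a score of 186, lay 2778972 bp from the nearest Cdx4 peak. Both positions were named after their values were seen.

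Cdx4-poor windows were spread over the genome. They lay on 25 of the 25 assembled chromosomes (136 windows with 810 peaks) and on 3 unplaced sequences (4 windows with 24 peaks). The intervals on the unplaced sequence Zv8_NA4675 reached only 0.0253 Mb. Its 1 window was thus shorter than 100 kb by the last position reached, with no interval in a flanking window. Chromosome 7 held 13 of them among its 42 dense windows, chromosome 5 held 12 among 33 and chromosome 6 held 12 among 24. The second part of chromosome 4, taken from the midpoint of the last position reached, held 0 dense windows of either class. Of the 140 windows, 99 had no dense window beside them, a count that was not made for the other dense windows. The 2 windows beside a Cdx4-poor window held a median of 3 Sall4 peaks, against 4 beside the other dense windows. The longest runs of Cdx4-poor windows were 2 adjacent windows, of which there were 8. Among these runs, the 1 on chromosome 3 at 37600001 to 37800000 held 14 Sall4 peaks, 2 Cdx4 peaks, 2 H3K27ac domains and 5 H3K4me3 domains. The run on chromosome 17 at 41000001 to 41200000 held 13 Sall4 peaks and 5 H3K27ac domains. The run on chromosome 15 at 16900001 to 17100000 held 10 Sall4 and 0 Cdx4 peaks with 1 domain of each mark, and the run on chromosome 5 at 38300001 to 38500000 held 11 Sall4 peaks, 1 Cdx4 peak, 1 H3K27ac domain and 3 H3K4me3 domains. On chromosome 13, the run at 22500001 to 22700000 held 11 Sall4 peaks, 1 H3K27ac domain and 2 H3K4me3 domains.

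The densest Cdx4-poor window lay on chromosome 16 at 27900001 to 28000000, and it held no called domain. Its 12 Sall4 peaks had scores of 87, 75, 64, 76, 52, 107, 77, 107, 102, 69, 77 and 55 in order along the chromosome, where the score is the authors' own number and ranks peaks only within their list. Its best peaks shared rank 3170 of 9747, and the lowest stood at percentile 7.40, where 100 is the best score. The 12 peaks spanned 56383 bp, with 5 of them within 5414 bp. The nearest Cdx4 peak was 458324 bp away, the nearest H3K27ac domain 443825 bp and the nearest H3K4me3 domain 8895 bp. The highest count of Sall4 peaks thus came with no peak of the top score group.

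Windows with 10 Sall4 peaks differed in their marks. On chromosome 10, neither Cdx4 peaks nor domains fell in the window at 11400001 to 11500000, and its Sall4 scores were 67, 127, 79, 86, 138, 62, 73, 61, 43 and 113 along the chromosome. All 10 of its peaks were over 5 kb from a domain of either mark. On chromosome 9, the window at 26600001 to 26700000 held its 10 peaks within 22267 bp, with scores of 65, 114, 61, 49, 59, 61, 144, 79, 156 and 149. Its peaks with scores of 79 and 156 lay in 1 H3K27ac domain of 799 bp at 26684700 to 26685498. On chromosome 20, the window at 29700001 to 29800000 had scores of 46, 83, 184, 158, 157, 112, 70, 76, 114 and 88. Its best peak, with the score of 184, overlapped the window's Cdx4 peak, and its domains, including an H3K27ac domain of 3199 bp, lay 2871 bp or more from a Sall4 peak.

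Windows with 9 Sall4 peaks were found on chromosomes 15, 21 and 8. On chromosome 15 at 7400001 to 7500000 the 9 peaks spanned 26476 bp, with 5 H3K27ac and 4 H3K4me3 domains in the window, and 1 of the 9 peaks lay in an H3K27ac domain. On chromosome 21 at 16300001 to 16400000 the nearest H3K27ac domain was 611456 bp away, and 1 peak lay in the window's H3K4me3 domain. On chromosome 8 at 16500001 to 16600000 all 9 peaks were over 5 kb from every domain. The 11 windows with 8 peaks had spans from 19051 to 78169 bp.

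**Figure D2:**
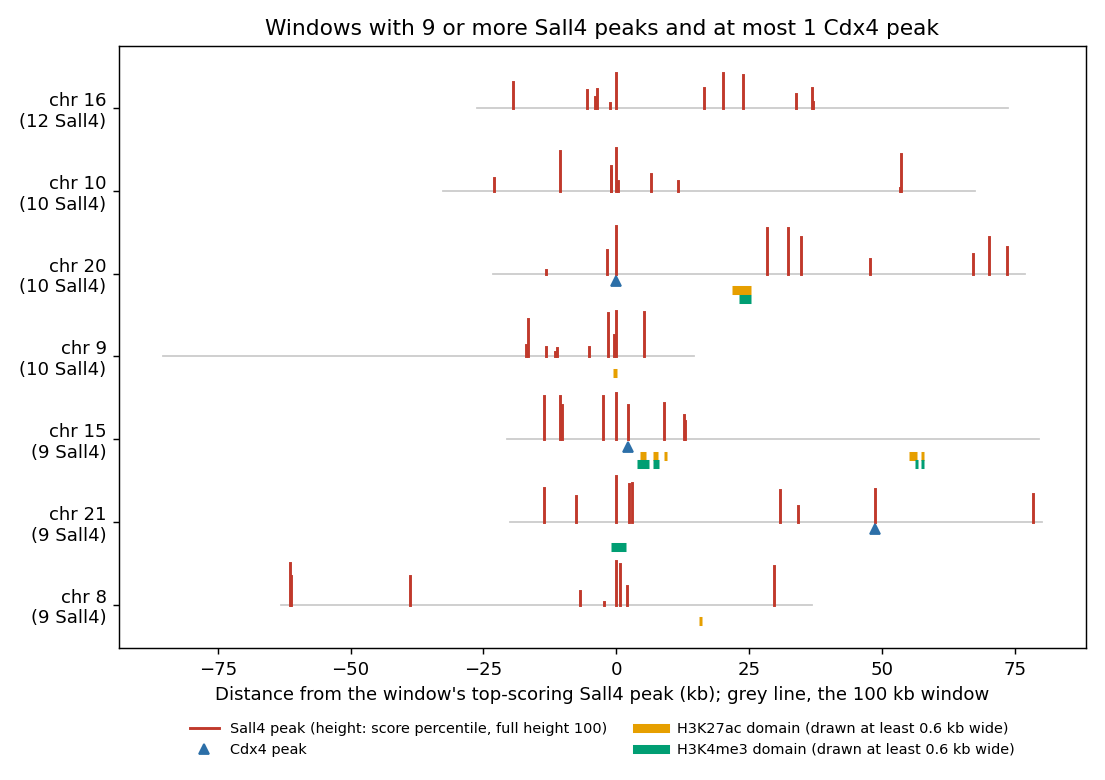
The 7 Cdx4-poor windows with 9 or more Sall4 peaks are drawn against the distance in kb from the top-scoring Sall4 peak of each window. Bar height is the score percentile in the Sall4 list, triangles are Cdx4 peaks, and coloured boxes are H3K27ac and H3K4me3 domains. The windows on chromosomes 16 and 10 hold 0 domains, and only those on chromosomes 20, 15 and 21 hold a Cdx4 peak.

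Neighbouring Sall4 peaks lay a median of 5216 bp apart in Cdx4-poor windows (694 gaps between peak centres, quartiles 1846 and 12598 bp). In the other dense windows the median was 3724 bp (quartiles 1132 and 9392 bp), but these held more peaks per window, with a median of 7 against 6. Among windows with 5 or 6 Sall4 peaks the medians were 5607 bp in 110 Cdx4-poor windows and 4585 bp in 135 other dense windows. Within the Cdx4-poor windows the median gap was 4496 bp at 5 Sall4 peaks, 6750 bp at 6 and 4236 bp at 7 or more. The Sall4 positions helped to choose the windows, so the spacing is given as a description. Of the 694 gaps, 14.1% (11.6 to 16.9%) were at most 500 bp, 19.2% (16.3 to 22.3%) at most 1 kb and 85.7% (82.9 to 88.3%) at most 20 kb. The peaks of a window were therefore loose clusters of kilobases with some close pairs. Short gaps were not particular to these windows. At 5 or 6 Sall4 peaks the lower quartile was 1840 bp, against 1522 bp in other dense windows.

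The closest pairs overlapped each other. In 6 gaps the centres were less than 100 bp apart, the smallest being 78 bp on chromosome 24 at 22790493 to 22790670, between peaks with scores of 59 and 90. On chromosome 5, a pair at 43873628 to 43873806 was 79 bp apart (scores 126 and 78). Pairs 83 bp apart lay on chromosome 10 at 11431477 to 11431659 (scores 79 and 86) and chromosome 8 at 16501670 to 16501852 (130 and 92). A pair 92 bp apart lay on chromosome 25 at 14943924 to 14944115 (172 and 107). No peak of these 5 pairs lay in a domain of either mark. The 694 gaps had 671 distinct values, and no value occurred more than 2 times. The window rule counted both peaks of an overlapping pair. Overlapping pairs lay in windows with exactly 5 Sall4 peaks on chromosomes 5, 15, 24 and 25, which needed both peaks to reach the limit.

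The whole cluster was compact in a few windows and loose in most. The distance from the first to the last Sall4 peak had a median of 47007 bp and ran from 4754 to 95513 bp. The closest 5 peaks of a window spanned a median of 30028 bp (quartiles 19470 and 49597 bp). The tightest 5 peaks lay within 4275 bp, on chromosome 13 at 6300001 to 6400000. A window on chromosome 25 at 16300001 to 16400000 had all 5 of its peaks within 4754 bp and no domain of either mark, and a window on chromosome 14 at 31700001 to 31800000 had all 5 within 5086 bp, 3 of them in H3K27ac domains. These 3 windows were named after their values were seen.

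**Figure D3:**
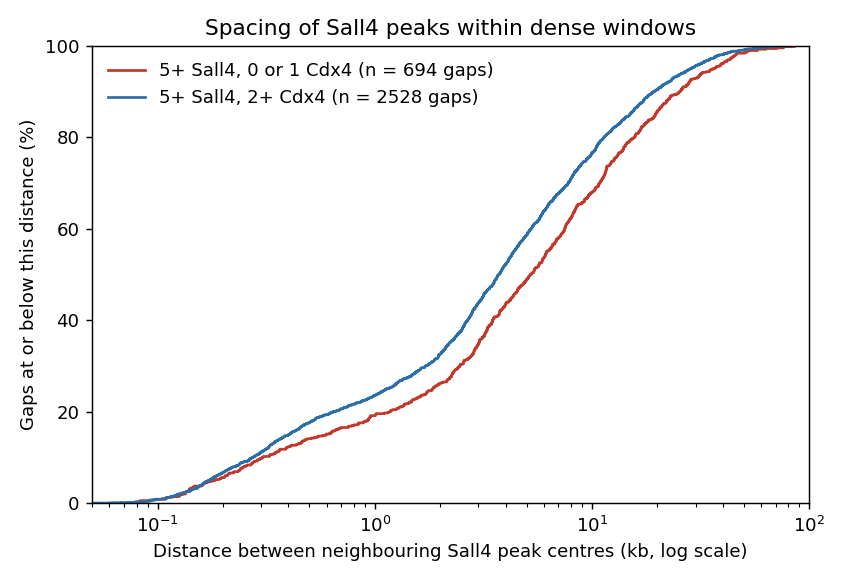
Cumulative share of gaps (y axis, %) against the distance between neighbouring Sall4 peak centres within a window (x axis, kb, log scale). The 694 gaps of Cdx4-poor windows (red) have a median of 5216 bp, and the 2528 gaps of the other dense windows (blue) a median of 3724 bp.

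The scores of the 834 Sall4 peaks were spread much like those of the whole list, which they are part of and which helped to choose them, so they are given as a description. Their scores ran from 31 to 367 with a median of 87, against a median of 88 over all Sall4 peaks, and the median percentile was 49.0. When the list was divided by score into 4 groups of equal size, 23.7% (20.9 to 26.8%) of the 834 peaks fell in the top group, 25.2% in the second, 27.2% in the third and 23.9% (21.0 to 26.9%) in the bottom group. In the other dense windows 36.2% were in the top group and 14.9% in the bottom group, and in sparse windows 19.8% and 30.0%. The top and bottom shares of the Cdx4-poor windows thus lay between those of the other classes. The lower score of these peaks than of those in other dense windows held without Cdx4 overlap, with a median percentile of 47.9 in 785 peaks against 54.5 in 1788. The 49 peaks that overlapped a Cdx4 peak had a median percentile of 67.1, against 70.9 for all Sall4 peaks over Cdx4 and 78.6 for those in other dense windows.

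High scores were less frequent per window than in the other dense windows. At least 1 peak of the top score group was present in 104 Cdx4-poor windows (74.3%, 66.2 to 81.3%), against 93.7% (90.7 to 96.0%) of the other dense windows. The best peak of a window had a median rank of 1432, against 482. At 5 or 6 Sall4 peaks per window, the median ranks were 1576 and 730. Over all windows of each class, the lower quartile of the best rank was 703, against 186.5 in the other dense windows. A count of windows with a peak among the 100 best of the list was made for Cdx4-poor windows alone. It gave 4 windows. The best peak in these windows, on chromosome 17 at 39644707 to 39644806, had a score of 367 and rank 23, overlapped a Cdx4 peak and lay in an H3K27ac domain. The other 5 peaks of its window had scores of 139, 107, 72, 137 and 70. The peak on chromosome 7 at 55190336 to 55190435 (score 323, rank 49) also overlapped a Cdx4 peak within an H3K27ac domain, and a neighbour with a score of 118 lay 109 bp away in the same domain. The other peaks of that window had scores of 87, 73, 97, 89 and 98.

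The rest of the 10 best-scoring peaks overlapped neither a Cdx4 peak nor a domain. This was the common state among all 834 peaks, of which 785 overlapped no Cdx4 peak and 746 no domain. Of the 834, 608 were over 5 kb from every domain. The peak on chromosome 6 at 56246386 to 56246485 (score 304) was 167609 bp from the nearest Cdx4 peak, 3315 bp from an H3K27ac domain and 3015 bp from an H3K4me3 domain. On chromosome 18 at 28997025 to 28997124 the score was 293 and the nearest Cdx4 peak 9876 bp away. On chromosome 25 at 14940666 to 14940765 the score was 286, with a Cdx4 peak at 3294 bp and an H3K27ac domain at 2935 bp. The next 5 had scores of 257 (chromosome 3, 32771493 to 32771592), 256 (chromosome 6, 28212318 to 28212417), 254 (chromosome 10, 25829769 to 25829868), 247 (chromosome 3, 37679478 to 37679577) and 244 (chromosome 7, 51944952 to 51945051). All 5 were over 5 kb from every domain, and their nearest Cdx4 peaks were 9439, 20784, 17470, 30716 and 55360 bp away.

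**Figure D4:**
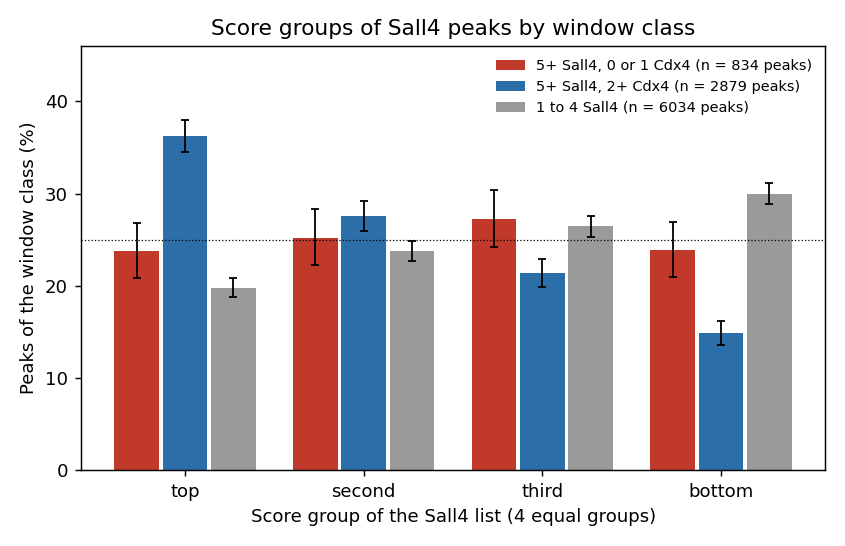
Share of Sall4 peaks (y axis, %) in each of 4 equal score groups of the Sall4 list (x axis) for 3 window classes, with exact binomial 95% intervals; the dotted line is at 25%. Cdx4-poor windows (red) are near 25% in every group, while the other dense windows (blue) have 36.2% in the top group.

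In 72 of the windows a single Cdx4 peak was present. Of these 72 Cdx4 peaks, 46 (63.9%, 51.7 to 74.9%) shared at least 1 bp with a Sall4 peak, against 68.7% (66.3 to 70.9%) of Cdx4 peaks in other dense windows and 51.5% in sparse windows. Of the other 26, 7 lay within 500 bp of a Sall4 peak. On the Sall4 side, 49 of the 834 peaks (5.88%) overlapped a Cdx4 peak, against 23.8% of all Sall4 peaks, a contrast that the rule fixes. The 72 Cdx4 peaks had a median score percentile of 46.6 in the Cdx4 list (quartiles 24.3 and 67.4), against medians of 61.6 in other dense windows and 47.9 in sparse windows. An H3K27ac domain overlapped 24 of them (33.3%, 22.7 to 45.4%), close to the 30.2% in other dense and 33.1% in sparse windows. An H3K4me3 domain overlapped 3 (4.17%, 0.868 to 11.7%), against 5.27% and 12.1%.

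Few Sall4 peaks of Cdx4-poor windows lay in an H3K27ac domain. Of the 834 peaks, 65 (7.79%, 6.07 to 9.83%) overlapped an H3K27ac domain by at least 1 bp, against 12.6% of all Sall4 peaks, 16.5% (15.2 to 17.9%) in the other dense windows and 11.4% in sparse windows. The difference from the other dense windows was -8.74 percentage points (-11.0 to -6.31 from the counting intervals of both shares). Overlap with Cdx4 accompanied this difference. Among Sall4 peaks that overlapped no Cdx4 peak, the share was 6.24% (4.65 to 8.17%) in Cdx4-poor windows, 9.40% (8.08 to 10.8%) in other dense windows, 5.35% in sparse windows and 6.42% over the whole list. Without the Cdx4 overlaps the Cdx4-poor windows were therefore close to the whole list, and the difference from other dense windows was -3.15 points (-5.30 to -0.822). With only domains over 500 bp wide, the shares were 0.839% in Cdx4-poor and 5.45% in other dense windows. The 49 peaks that did overlap Cdx4 lay in H3K27ac domains in 16 cases (32.7%, 20.0 to 47.5%), close to the 32.3% of all Sall4 peaks that overlapped Cdx4.

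The H3K27ac share also varied within the Cdx4-poor windows. It was 4.94% (3.04 to 7.52%) in the 68 windows with 0 Cdx4 peaks and 10.5% (7.76 to 13.8%) in the 72 windows with 1. Among peaks that did not overlap Cdx4 the 2 shares were 4.94% and 7.63% (5.17 to 10.8%), with overlapping intervals. Just outside the rule, the share was 8.64% for windows with 4 Sall4 peaks and at most 1 Cdx4 peak, and 10.2% for dense windows with 2 Cdx4 peaks. By score, 13.6% (9.18 to 19.2%) of the peaks in the top score group and 5.53% (2.79 to 9.68%) in the bottom group lay in H3K27ac domains. Over all Sall4 peaks the same shares were 18.0% and 8.33%, so the fall with score was not limited to these windows. The 65 peaks in H3K27ac domains had a median score percentile of 70.9, and the 746 peaks in no domain 47.9, against 63.2 and 47.9 over the whole list.

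H3K4me3 overlapped fewer of the peaks still. Of the 834 peaks, 24 (2.88%, 1.85 to 4.25%) lay in an H3K4me3 domain, against 7.58% of all Sall4 peaks and 9.89% (9.15 to 10.7%) in sparse windows. In the other dense windows the share was 4.10% (3.40 to 4.89%), so that the Cdx4-poor windows were at -1.22 points relative to them (-2.51 to 0.319). That difference turned to 0.781 points with windows of 200 kb, and it was -2.61 points among windows with 5 or 6 Sall4 peaks and -0.148 points when 0 Cdx4 peaks were allowed. A low H3K4me3 share was thus seen in dense Sall4 windows with and without Cdx4. Within the Cdx4-poor windows it was 5.07% for windows with 5 peaks and 1.403% (0.566 to 2.87%) for those with 6 or more. The 1 peak in domains of both marks, on chromosome 20 at 37719248 to 37719347 (score 81), also overlapped a Cdx4 peak. Both marks together were found at 1.42% of all Sall4 peaks.

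**Figure D5:**
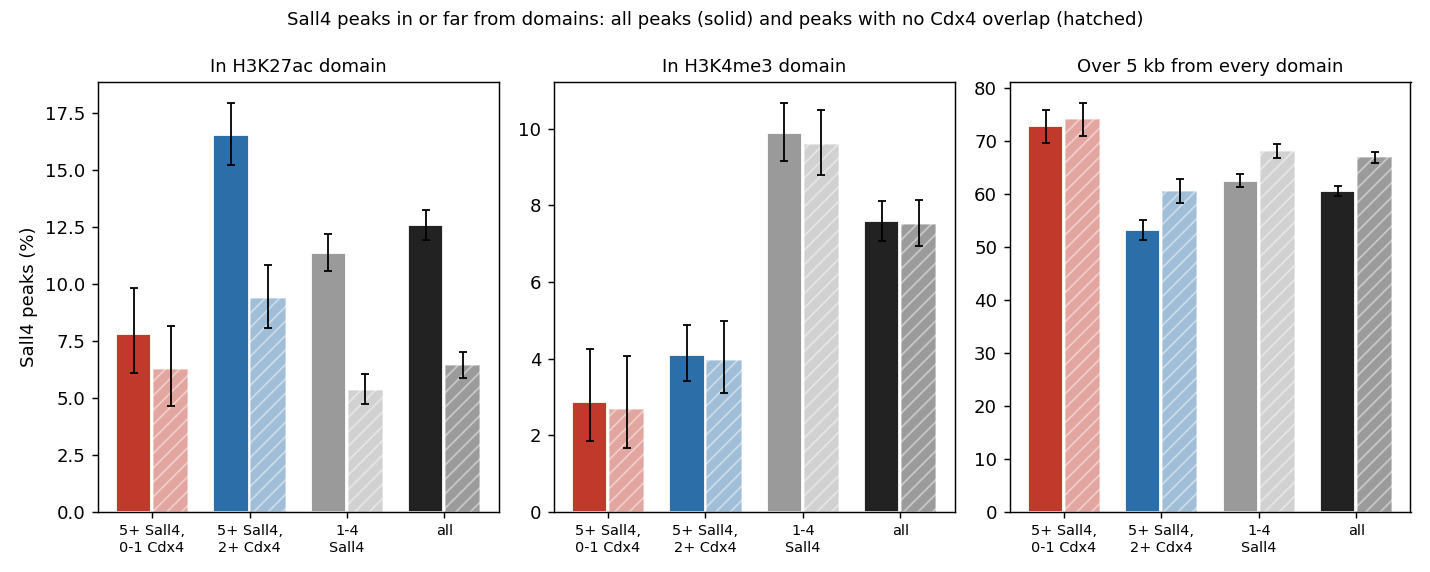
Share of Sall4 peaks (y axes, %) in an H3K27ac domain, in an H3K4me3 domain and over 5 kb from every domain, by window class and for all Sall4 peaks, with exact binomial 95% intervals. Solid bars are all peaks and hatched bars are peaks with no Cdx4 overlap: the H3K27ac share of Cdx4-poor windows is 7.79% and 6.24%, and that of the other dense windows 16.5% and 9.40%.

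Distance from both marks was the most common state. No domain of either mark overlapped 746 of the 834 peaks (89.4%, 87.2 to 91.5%), against 81.3% of all Sall4 peaks. Of the 834 peaks, 608 were over 5 kb from each domain (72.9%, 69.8 to 75.9%), against 60.7% of all Sall4 peaks, 53.2% (51.4 to 55.1%) in the other dense windows and 62.5% in sparse windows. Without Cdx4 overlap the shares were 74.3% (71.1 to 77.3%), 60.7% (58.4 to 63.0%) and 68.1% in the same order. The order of the classes was the same in each of the 4 score groups: in the top group 66.2%, 49.2% and 53.2% were over 5 kb from every domain, and in the bottom group 78.4%, 58.9% and 73.0%. Peaks on a sequence with no domain counted as over 5 kb away. A distance to a domain of either mark existed for all 834 peaks. It existed for 2872 of 2879 peaks in other dense windows and 5919 of 6034 in sparse windows. The medians below leave out peaks with no domain of that mark on their sequence. The median distance to the nearest H3K27ac domain was 42520 bp in Cdx4-poor windows and 10332 bp in other dense windows. That median was 77449 bp in sparse windows and 37694 bp over all Sall4 peaks. For the nearest H3K4me3 domain the medians were 34803 bp in Cdx4-poor and 24460 bp in other dense windows. For that mark sparse windows had a median of 22838 bp and all Sall4 peaks 24390 bp. In 54 of the 140 windows (38.6%, 30.5 to 47.2%) every Sall4 peak was over 5 kb from every domain, against 43 of 351 other dense windows (12.3%, 9.01 to 16.2%). This condition is harder to meet with more peaks, and the other dense windows held a median of 7 Sall4 peaks against 6.

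Whole windows without a domain of either mark were more frequent than among other dense windows, but not more frequent than among sparse windows. A domain was counted in a window when its centre lay there. Neither mark had a domain in 35 of the 140 windows (25%, 18.1 to 33.0%), against 7.12% (4.66 to 10.3%) of the other dense windows and 26.9% of sparse windows. H3K27ac domains alone were present in 25 windows, H3K4me3 domains alone in 37 and domains of both marks in 43. No H3K27ac domain was counted in 72 windows (51.4%, 42.8 to 60.0%), against 19.1% of the other dense windows and 67.4% of sparse windows. No H3K4me3 domain was counted in 60 windows (42.9%, 34.5 to 51.5%), against 29.1% and 35.4%. At 5 or 6 Sall4 peaks per window, the shares without any domain were 26.4% (18.4 to 35.6%) of 110 Cdx4-poor windows and 8.15% (4.14 to 14.1%) of 135 other dense windows. The 35 windows without domains held 208 Sall4 peaks with a median score percentile of 40.3, the lowest of the 4 kinds of window, while windows with H3K27ac alone had a median of 54.5. Among the 35, 11 held a Cdx4 peak, against 16 of the 25 with H3K27ac alone. The counts were 19 of the 37 with H3K4me3 alone and 26 of the 43 with both marks.

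The 107 H3K27ac domains in Cdx4-poor windows were mostly narrow, as they were in the other classes. Their median width was 299 bp, against 399 bp in the other dense windows and in sparse windows. Of the 107, 15 (14.0%, 8.06 to 22.1%) were over 500 bp wide, against 25.1% (22.3 to 28.2%) in other dense windows. In sparse windows 19.0% (17.2 to 20.8%) were. A Sall4 peak overlapped 54 of the 107 (50.5%, 40.6 to 60.3%), against 46.4% (43.1 to 49.9%) of the 859 domains in other dense windows. In sparse windows 33.4% overlapped a Sall4 peak. An H3K4me3 domain overlapped 14 of the 107 (13.1%), against 15.25% in other dense and 24.9% in sparse windows. The score percentile of the 107 domains within the H3K27ac list had a median of 50.9 (quartiles 29.3 and 67.9).

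A few windows held many H3K27ac domains, and these did not always carry Sall4. The most, 6 domains between 43812000 and 43817898, were in the window on chromosome 5 at 43800001 to 43900000. They lay 31967 bp or more from its 5 Sall4 peaks, which had scores of 90, 87, 126, 78 and 173. On chromosome 6, the window at 30600001 to 30700000 had 5 domains, and 3 of its 8 Sall4 peaks lay in them, including a peak with a score of 173 at 30647653. The window on chromosome 15 named above also had 5 domains, and a window on chromosome 17 at 41000001 to 41100000 had 4. On chromosome 18 at 28900001 to 29000000 there were 3 H3K27ac and 5 H3K4me3 domains beside 5 Sall4 peaks. The most Sall4 peaks in H3K27ac domains, 4 of 6, were in a window on chromosome 18 at 33700001 to 33800000, which was named after its value was seen.

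The Cdx4-poor windows held 188 H3K4me3 domains. Their median width was 699 bp, the same as in sparse windows, against 599 bp in other dense windows. Of the 188, 24 (12.8%, 8.35 to 18.4%) were over 1500 bp wide, against 15.0% in other dense and 9.60% in sparse windows. A Sall4 peak overlapped 21 of the 188 (11.2%, 7.05 to 16.6%), against 15.0% in other dense and 8.70% in sparse windows, so most H3K4me3 domains held no Sall4 peak in every class. Of the 188, 94 were over 5 kb from any Sall4 peak (50%, 42.6 to 57.4%), against 37.7% and 70.0%. An H3K27ac domain overlapped 14 of the 188 (7.45%, 4.13 to 12.2%), against 16.8% (14.0 to 19.8%) of the 692 in other dense windows and 6.99% of those in sparse windows. The window with the most, on chromosome 20 at 37700001 to 37800000, held 10 H3K4me3 domains and 5 Sall4 peaks with scores of 81, 111, 101, 142 and 80. Only the first of these peaks lay in an H3K4me3 domain. Some of the 10 domains lay close together, such as those at 37763900 to 37764398 and 37764700 to 37765098. Windows on chromosome 20 at 27300001 to 27400000 and chromosome 5 at 35300001 to 35400000 held 7 H3K4me3 domains each, and a window on chromosome 22 at 10100001 to 10200000 held 6. Domains with a score of 0 were counted too, such as that on chromosome 20 at 27353400 to 27353599. The numbers of domains are therefore numbers of called intervals, which need not be separate elements. The window on chromosome 18 with 5 H3K4me3 domains, named above, was joined at that number by windows on chromosome 20 at 22500001 to 22600000 and chromosome 5 at 49600001 to 49700000.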

How the data were processed

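The authors deposited 1 interval list per ChIP library, and each interval carries a deposited score of unstated meaning, which served here to order intervals of the same list. Sall4 and Cdx4 peaks bear the name of the GPS peak caller, per the file's interval names. Bowtie 0.12.7 and CASAVA 1.4 appear in the submitters' processing notes without roles. Not given in the sources used here are depth, thresholds and the use of the 3 input libraries, which were not analysed here. Scaffold names carry the prefix of assembly Zv8. Coordinates were read as 1-based with both ends included.

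Peak centres were counted in 100 kb windows. Overlap meant at least 1 bp shared, and distances ran between interval edges, except gaps between Sall4 peaks, which ran between centres and within 1 window. Difference intervals combined both exact intervals by squaring and adding. The window rule recovered 90 of 90 windows planted in simulated data. The rule, lists and comparisons were chosen with earlier results of these data known. Named windows were the densest, the first 5 runs in order of name and those with the most domains. Named peaks were the 10 best-scoring, the closest pairs and the 1 in both marks. Named outside this rule, after their values were seen, were the tightest windows, the window with the most Sall4 peaks in H3K27ac, the window with the most Cdx4 in its flanks, the peak farthest from Cdx4 and single peaks that describe a named window. Alternatives changed the tiling, window size, limits, sequences, part of the Sall4 list, overlap and domains. The software was scipy 1.17.1, pandas 2.3.3, numpy 2.4.6 and matplotlib 3.10.9 under Python 3.11.15. Peaks without Cdx4 overlap were an alternative added after seeing the data.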

Additional observations from a re-analysis of the deposited data

How the results depend on the processing

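No replicate existed for any target, so no paired analysis was possible because each group had 1 library. Depth is unknown, and the cause of the shifts below was not tested beyond what each change does by construction. The H3K27ac difference between Cdx4-poor and other dense windows kept its sign under every alternative run. It was -11.6 points with 0 Cdx4 peaks allowed, -12.8 with 5 or 6 Sall4 peaks per window, -4.61 with domains over 500 bp wide alone and -3.15 for peaks without Cdx4 overlap, an alternative chosen after seeing the data. The H3K4me3 difference changed sign with 200 kb windows (0.781 points), and was -3.26 with 50 kb windows, -3.37 with the best-scoring Sall4 peaks alone and -2.61 with 5 or 6 Sall4 peaks. With 0 Cdx4 peaks allowed there were 68 windows and 405 peaks, the H3K27ac share was 4.94%, 77.8% of peaks were over 5 kb from a domain and 35.3% of windows had no domain. With 6 or more Sall4 peaks there were 73 windows and 499 peaks, with an H3K4me3 share of 1.403% and 76.4% of peaks far from domains. With only the 5166 best-scoring Sall4 peaks, 23 windows and 129 peaks were left, the H3K4me3 share was 0.775%, the median gap 6974 bp, the median percentile 74.0, and 76.0% of peaks were far from domains, with 17.4% of windows free of them. Windows of 50 kb gave an H3K4me3 share of 1.44%, a median gap of 3511 bp and 46.6% of windows without domains, and windows of 200 kb gave 5.01%, 7868 bp and 10.6%. With domains over 500 bp wide alone, the H3K27ac share was 0.839%, 87.1% of peaks were far from domains and 50.7% of windows had none. With the upper part of each domain list by score, these were 4.197%, 84.2% and 42.1%.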
